A study of Homo sapiens with 12 samples.

Results

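The 10 genes described here, AXIN2, NKD1, RNF43, ZNRF3, LGR5, ASCL2, SP5, TCF7, LEF1 and MYC, are established targets of Wnt/beta-catenin signalling, and their values were taken by gene name from a table of 62700 genes. All 10 were in the table. Of these, 7 passed the filter on low counts that left 18049 genes for testing, and LGR5, ASCL2 and LEF1 did not. Poly(A) RNA was sequenced from HCT116 TIM-mAID cells, a human colorectal cancer line in which TIMELESS, a replication fork protein, carries the mAID degron tag through a CRISPR knock-in. All 12 libraries come from this line at 40 h. They form 4 groups of 3 biological replicates: 5-Ph-IAA with ATRi (1 µM each, called 5-Ph-IAA/ATRi), 5-Ph-IAA alone at 1 µM, ATRi alone at 1 µM, and the DMSO vehicle. 5-Ph-IAA is an auxin analogue that triggers breakdown of degron-tagged proteins, and ATRi is ceralasertib, an inhibitor of the replication stress kinase ATR. The degron acts on protein, so the RNA level of TIMELESS does not check these labels. Whether the line is a single clone is not given in the sources used here.

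Without a Wnt signal, a destruction complex built on APC and AXIN proteins marks beta-catenin for breakdown. When Wnt ligands bind Frizzled and LRP receptors, beta-catenin is spared, enters the nucleus and activates genes through the TCF/LEF family of DNA-binding factors. Many of its targets, such as AXIN2, NKD1, RNF43 and ZNRF3, encode inhibitors of the same pathway. HCT116 cells are known to carry an activating mutation of CTNNB1, the beta-catenin gene, with APC intact, so that the pathway is active without ligand. In the crypts of the intestine the pathway maintains stem cells, which are marked by LGR5 and ASCL2.

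TCF/LEF factors bind DNA at a short motif whose common forms are CTTTGAT and CTTTGAA. The RefSeq promoter table for GRCh38.p14 held 4 of the 10 genes, namely RNF43, SP5, TCF7 and LEF1. In 250 bases before the start site, both strands were searched for both 7-base forms, which cannot occur at the same place. Of 35116 promoter windows, 2.26% held CTTTGAT, 3.8% held CTTTGAA and 5.94% held either. The SP5 window on the plus strand (chr2:170715087-170715336) held 3 matches, which begin at positions -148, -109 and -84 from the start site. The windows of RNF43, TCF7 and LEF1 held none of these letters. Those of TCF7 and LEF1 all lie inside the gene (chr5:134108218-134148210 and chr4:108047548-108168932), before internal start sites. The start at the outer end of TCF7 or LEF1 was therefore not searched. Beyond the 10 genes, DKK1 and TCF7L2 were searched. All 3 TCF7L2 windows held no match, and the window of DKK1, which encodes a secreted Wnt inhibitor (plus strand, chr10:52314031-52314280), held 1 match, at position -95. The SP5 and DKK1 windows are shown because both genes take part in the comparisons that follow. An internal TCF7 window on the plus strand (chr5:134115363-134115612) is shown as one without a match. Capitals mark the motif on either strand, where ATCAAAG and TTCAAAG are the reverse complements. A match is a description of the letters, not evidence of binding.
SP5: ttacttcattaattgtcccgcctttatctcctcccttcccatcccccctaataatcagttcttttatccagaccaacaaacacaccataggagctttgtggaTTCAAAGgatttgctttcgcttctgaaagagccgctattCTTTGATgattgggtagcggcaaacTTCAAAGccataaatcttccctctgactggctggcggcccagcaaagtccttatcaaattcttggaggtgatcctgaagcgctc
DKK1: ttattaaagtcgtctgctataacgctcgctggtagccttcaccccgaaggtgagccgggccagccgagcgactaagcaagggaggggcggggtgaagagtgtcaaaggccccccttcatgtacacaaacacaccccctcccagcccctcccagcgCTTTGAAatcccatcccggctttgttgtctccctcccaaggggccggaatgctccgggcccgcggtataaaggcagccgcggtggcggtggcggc
TCF7: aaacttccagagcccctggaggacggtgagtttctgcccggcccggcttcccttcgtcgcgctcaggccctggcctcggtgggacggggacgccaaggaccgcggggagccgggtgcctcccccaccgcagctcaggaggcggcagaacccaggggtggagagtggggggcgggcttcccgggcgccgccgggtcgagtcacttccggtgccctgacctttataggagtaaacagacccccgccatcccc

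Library totals lay between 27695914 and 34704725 counts, and levels are given as CPM, counts scaled to the library total and adjusted by TMM for library composition. A count of 3, used as the counting floor, corresponds to 0.0846 to 0.109 CPM depending on the library, which covers counting error only. Mitochondrial transcripts held 6.63 to 14.9% of the counts, with a mean of 12.2% in 5-Ph-IAA/ATRi against 9.81% in DMSO, a difference that a 2-sided exact permutation test did not separate (p = 0.5; the smallest possible p for 3 against 3 is 0.1). The epithelial label was checked against 8 markers. KRT8, KRT18, KRT19, EPCAM and CDH1 were abundant in every library and CDX2 stood at 12.6 to 17.0 CPM, while VIL1 stayed at or under 0.69 CPM and CDX1 at or under 2 counts per library. The 8 markers summed to between 9993 and 11436 CPM in 5-Ph-IAA/ATRi, against 4294 to 6384 CPM in DMSO. The higher sum was carried by keratins, with KRT8 at a mean of 4964 against 1942 CPM, KRT19 at 2956 against 1599 and KRT18 at 2225 against 1079, while EPCAM stood at 358 against 455 and CDH1 at 89.8 against 86.1 CPM in 5-Ph-IAA/ATRi against DMSO. A list of 5 leukocyte markers summed to between 29.6 and 38.0 CPM in 5-Ph-IAA/ATRi, against 8.39 to 10.2 CPM in DMSO, nearly all of it CD68, a lysosomal protein that averaged 33.6 against 8.77 CPM in these groups. The defining leukocyte genes PTPRC and CD3E had at most 5 counts in any library. The 5 fibroblast markers, nearly all COL1A1, summed to between 43.6 and 69.9 CPM in 5-Ph-IAA/ATRi, against 35.7 to 106 CPM in DMSO. A list of 3 neuronal markers, nearly all SYT1, summed to between 21.4 and 26.6 CPM in 5-Ph-IAA/ATRi, against 68.6 to 71.2 CPM in DMSO. The part of these marker shifts in the results was not tested.

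After 40 h with both compounds, none of the 7 testable Wnt target genes differed from DMSO beyond the threshold, which was an adjusted p of 0.05 in edgeR's quasi-likelihood test over all 18049 genes with 1 mean per group. The sample titles also number the libraries in 3 sets that each hold all 4 treatments, and with this number as a block TCF7 passed. With the block 4569 of all tested genes passed in this comparison. Without it 13.1% of all tested genes passed (2370 genes), 6.24% higher and 6.89% lower. In the fit without the block SP5 and TCF7, which encode transcription factors, came nearest, with every 5-Ph-IAA/ATRi library above every DMSO library. AXIN2 and MYC had higher means with both compounds, but their ranges overlapped those of DMSO. RNF43, ZNRF3 and NKD1 had log2 differences between -0.28 and 0.20. A bulk level averages all cells of a culture, so fewer expressing cells and less RNA per cell cannot be told apart.

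The inhibitors of the pathway come first. AXIN2 (chr17:65528563-65561648), a scaffold of the destruction complex that is often read as a reporter of pathway activity, had 9.77, 11.2 and 15.6 CPM in the libraries of 5-Ph-IAA/ATRi. It had 8.39, 5.99 and 14.98 CPM with 5-Ph-IAA and 8.68, 10.7 and 15.2 CPM with ATRi, against 8.66, 2.997 and 11.1 CPM in DMSO. Library 3 was the highest in each group, library 2 of DMSO was the lowest of all 12, and the groups overlapped. The means were 12.2 ± 3.03 CPM in 5-Ph-IAA/ATRi, 9.79 ± 4.66 CPM in 5-Ph-IAA and 11.5 ± 3.34 CPM in ATRi, against 7.58 ± 4.15 CPM in DMSO (SD, n = 3 each). The log2 difference between 5-Ph-IAA/ATRi and DMSO was 0.68 ± 0.45 (SE), with a 95% interval of -0.30 to 1.66 and an adjusted p of 0.371 (edgeR). Without library 2 of DMSO it was 0.30 ± 0.37 (adjusted p = 0.659, edgeR). The AXIN2 differences with ATRi alone (0.60 ± 0.45) and with 5-Ph-IAA alone (0.37 ± 0.45) both had an adjusted p of 1 (edgeR).

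NKD1 (chr16:50548396-50649249) encodes a Dishevelled-binding antagonist of Wnt signalling. It had 8.52, 8.86 and 9.76 CPM in 5-Ph-IAA/ATRi, 10.9, 10.9 and 14.3 CPM in 5-Ph-IAA and 11.2, 12.4 and 13.5 CPM in ATRi, against 10.5, 8.53 and 13.97 CPM in DMSO. All libraries with both compounds lay below all libraries with either compound alone, and they overlapped DMSO only through its library 2. Its mean was 9.05 ± 0.64 CPM in 5-Ph-IAA/ATRi, 12.03 ± 1.98 CPM in 5-Ph-IAA and 12.4 ± 1.16 CPM in ATRi, against 10.997 ± 2.76 CPM in DMSO (SD, n = 3 each), so ATRi was highest and both compounds together lowest. The log2 difference was -0.45 ± 0.19 against ATRi (adjusted p = 0.255, edgeR) and -0.41 ± 0.19 against 5-Ph-IAA (adjusted p = 0.227, edgeR). Against DMSO it was -0.28 ± 0.19, with a 95% interval of -0.70 to 0.13 (adjusted p = 0.385, edgeR). This NKD1 value was -0.44 without library 2 of DMSO and -0.08 without library 3 of DMSO (adjusted p = 0.147 and 0.827, edgeR). The interaction, which sets the combined log2 change against the sum of both single changes, was -0.58 ± 0.27 (adjusted p = 0.698, edgeR).

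RNF43 and ZNRF3 encode membrane ubiquitin ligases that remove Frizzled receptors from the cell surface. RNF43 (chr17:58352500-58417534) had 113, 103 and 144 CPM in 5-Ph-IAA/ATRi, 130.3, 124 and 165 CPM in 5-Ph-IAA and 105, 119.5 and 139 CPM in ATRi, against 138, 98.5 and 158 CPM in DMSO. ZNRF3 (chr22:28883572-29057488) had 19.2, 19.5 and 21.9 CPM in 5-Ph-IAA/ATRi, 15.6, 11.9 and 21.2 CPM in 5-Ph-IAA and 15.7, 18.2 and 21.5 CPM in ATRi, against 17.1, 12.3 and 23.3 CPM in DMSO. All 4 groups overlapped in both genes, and library 3 was again the highest of its group. The combined treatment differed from DMSO by -0.13 ± 0.20 in RNF43 (95% interval -0.57 to 0.30, adjusted p = 0.736) and by 0.20 ± 0.25 in ZNRF3 (95% interval -0.34 to 0.74, adjusted p = 0.671) on the log2 scale (edgeR). RNF43 overlaps SUPT4H1 on its own strand in GENCODE v29, and SUPT4H1 held 78.9% as many counts. How the authors' counting divided such reads is not given in the sources used here.

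**Figure D1:**
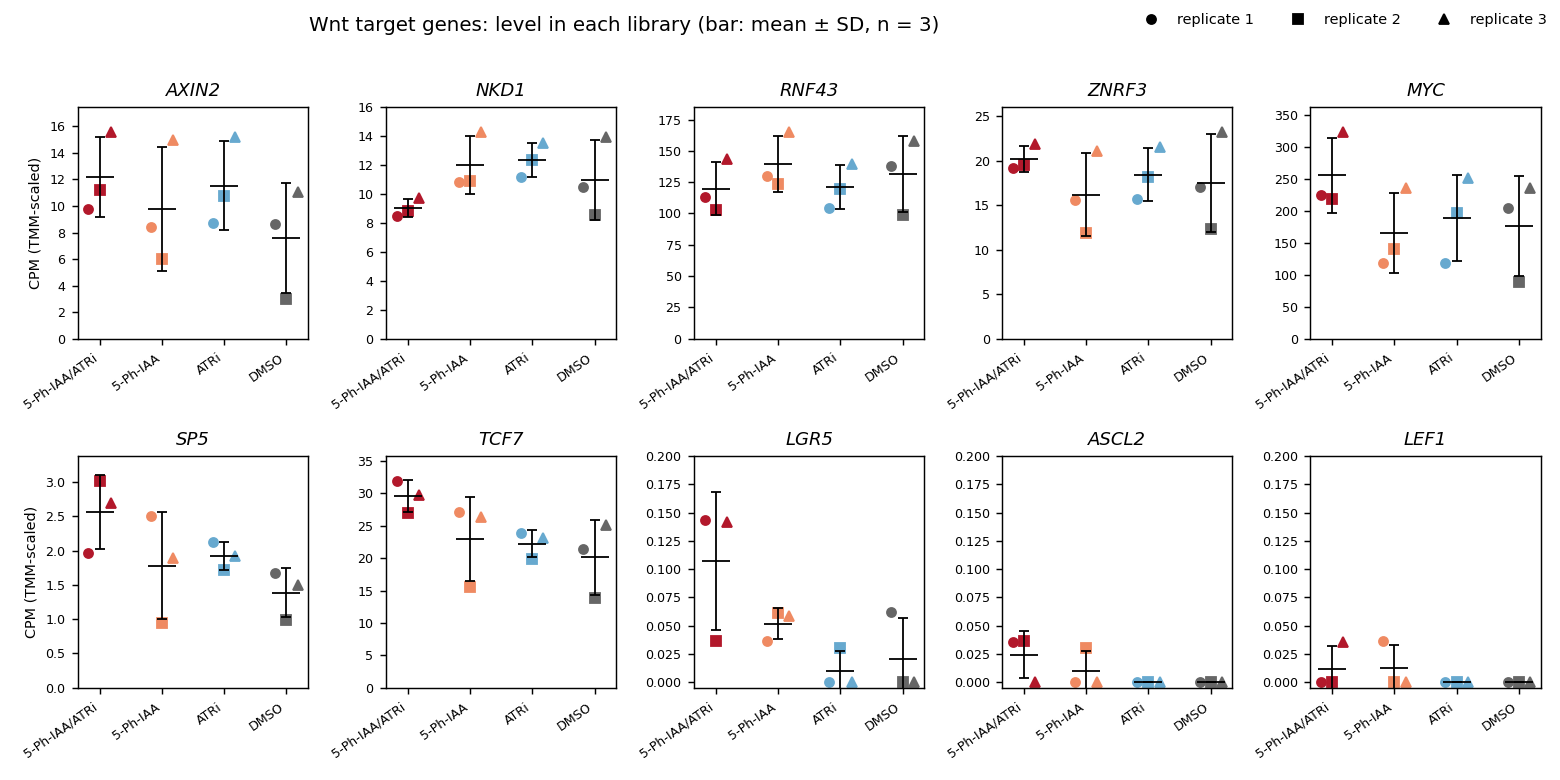
Level in TMM-scaled CPM (vertical axes, each from its own scale) of the 10 Wnt target genes in each of the 12 libraries, by group, with marker shapes for replicates 1 to 3 and bars for the mean ± SD of 3 libraries. AXIN2, ZNRF3 and MYC show library 3 on top in every group, SP5 and TCF7 show 5-Ph-IAA/ATRi above DMSO, and LGR5, ASCL2 and LEF1 stay below 0.2 CPM.

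Among the tested transcription factors, SP5 had the highest fold change in 5-Ph-IAA/ATRi vs DMSO. SP5 (chr2:170715337-170718078), a zinc finger factor whose promoter window carries the 3 motif matches shown above, had 1.97, 3.02 and 2.698 CPM in 5-Ph-IAA/ATRi. It had 2.51, 0.947 and 1.89 CPM in 5-Ph-IAA and 2.12, 1.71 and 1.92 CPM in ATRi, against 1.67, 0.987 and 1.502 CPM in DMSO. All libraries with both compounds and all with ATRi lay above all DMSO libraries, while 5-Ph-IAA overlapped every other group. These levels rest on 28 to 83 counts per library. The means were 2.56 ± 0.54 CPM in 5-Ph-IAA/ATRi, 1.78 ± 0.78 CPM in 5-Ph-IAA and 1.92 ± 0.20 CPM in ATRi, against 1.39 ± 0.36 CPM in DMSO (SD, n = 3 each). SP5 differed from DMSO by 0.88 ± 0.34 with both compounds (95% interval 0.13 to 1.63, adjusted p = 0.121, edgeR), a 1.84-fold difference, and by 0.46 ± 0.34 with ATRi alone (adjusted p = 1, edgeR).

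TCF7 (chr5:134108218-134148210) encodes TCF-1, a DNA-binding partner of beta-catenin. It had 31.9, 27.0 and 29.7 CPM in 5-Ph-IAA/ATRi, 27.1, 15.5 and 26.4 CPM in 5-Ph-IAA and 23.8, 19.8 and 23.1 CPM in ATRi, against 21.4, 13.8 and 25.2 CPM in DMSO. With both compounds all libraries stood above all ATRi and all DMSO libraries. They overlapped 5-Ph-IAA only at its highest library. The means were 29.5 ± 2.45 CPM in 5-Ph-IAA/ATRi, 23.0 ± 6.50 CPM in 5-Ph-IAA and 22.3 ± 2.14 CPM in ATRi, against 20.1 ± 5.80 CPM in DMSO (SD, n = 3 each). TCF7 differed from DMSO by 0.55 ± 0.24 on the log2 scale (95% interval 0.03 to 1.08, adjusted p = 0.164, edgeR), which was 0.34 ± 0.22 without library 2 of DMSO (adjusted p = 0.362, edgeR). With the set number as a replicate block the TCF7 difference was 0.59 ± 0.15 and passed (adjusted p = 0.0167, edgeR). SKP1 overlaps TCF7 on the opposite strand and held 434% of the counts of TCF7. Because the strand setting of the counting is not given in the sources used here, reads of both genes may not have been separated.

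MYC (chr8:127735434-127742951), a master regulator of growth, had 225, 219 and 324 CPM in 5-Ph-IAA/ATRi, 119, 141 and 237 CPM in 5-Ph-IAA and 118, 196 and 252 CPM in ATRi, against 204, 88.6 and 237 CPM in DMSO. Library 3 was the highest of each group, and library 2 of DMSO was the lowest of all 12. The means were 256 ± 59.1 CPM in 5-Ph-IAA/ATRi, 166 ± 62.6 CPM in 5-Ph-IAA and 189 ± 67.4 CPM in ATRi, against 177 ± 78.0 CPM in DMSO (SD, n = 3 each). The combined treatment differed from DMSO by 0.54 ± 0.39 (95% interval -0.31 to 1.38, adjusted p = 0.423), from 5-Ph-IAA by 0.63 ± 0.39 (adjusted p = 0.379) and from ATRi by 0.44 ± 0.39 (adjusted p = 0.662) on the log2 scale (edgeR). Without library 2 of DMSO, the difference between 5-Ph-IAA/ATRi and DMSO in MYC was 0.21 ± 0.34 (adjusted p = 0.747, edgeR).

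The stem cell genes and LEF1 were at or near the counting floor. LGR5 (chr12:71439129-71586310), a receptor for R-spondins, had 4, 1 and 4 counts in the 5-Ph-IAA/ATRi libraries, 1, 2 and 2 with 5-Ph-IAA and 0, 1 and 0 with ATRi, against 2, 0 and 0 in DMSO. Group totals of LGR5 were 9 counts with both compounds, 5 with 5-Ph-IAA and 1 with ATRi, against 2 in DMSO. Without the count filter, its adjusted p was 0.419 against DMSO and 0.405 against ATRi (edgeR), and overlapping TSPAN8 on the opposite strand held 60 counts over the 12 libraries. ASCL2 (chr11:2268498-2270588), a crypt stem cell factor, had 3 counts in all 12 libraries together, with 2 of them in 5-Ph-IAA/ATRi and 0 in DMSO. LEF1 (chr4:108047548-108168932), a further DNA-binding partner of beta-catenin, had 2 counts in all, 1 in 5-Ph-IAA/ATRi and 0 in DMSO. With 0 counts in a library, a level of up to 0.0846 to 0.109 CPM is still possible, so a difference in ASCL2 or LEF1 was not detectable at this depth.

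Levels of different genes were set side by side as CPM per kilobase of the principal transcript in GENCODE v29. On this scale MYC led with 188 in 5-Ph-IAA/ATRi against 129 in DMSO. RNF43 followed with 21.5 against 23.6, then TCF7 with 9.7 against 6.6 and ZNRF3 with 7.01 against 6.1. AXIN2 stood at 2.86 against 1.78, SP5 at 1.26 against 0.682 and NKD1 at 0.529 against 0.643 CPM per kilobase. The order of the 7 genes was the same in both groups. The value of NKD1 depends on a listed transcript of 17105 bases.

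**Figure D2:**
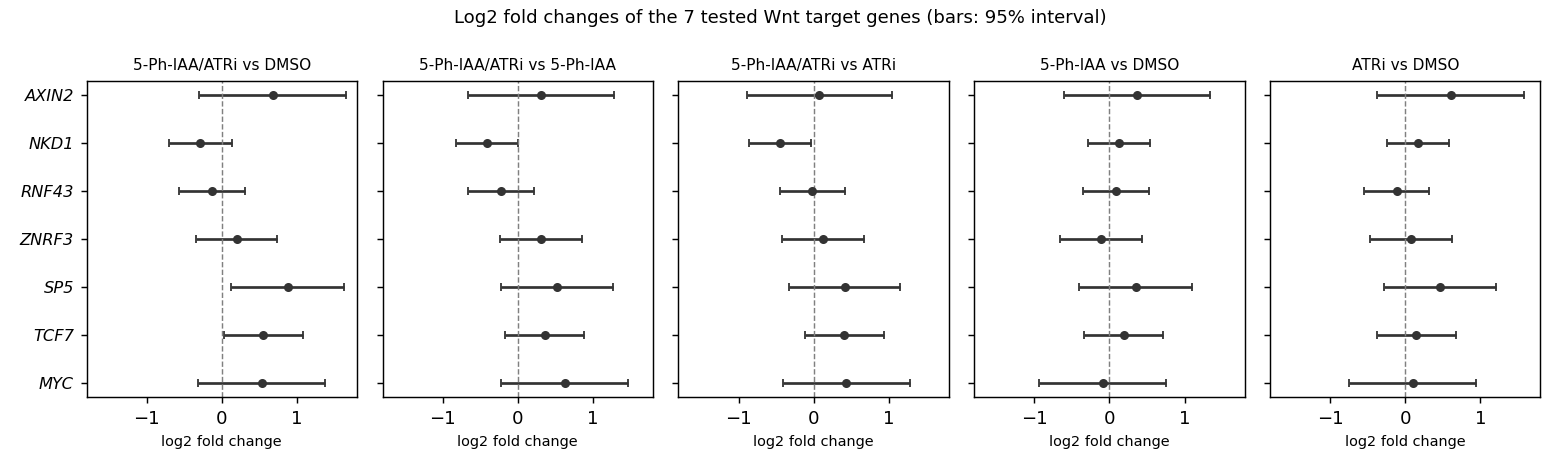
Log2 fold change (horizontal axes) of the 7 tested Wnt target genes in 5 comparisons, as points with 95% intervals from edgeR. The intervals exclude 0 for SP5 and TCF7 in 5-Ph-IAA/ATRi vs DMSO and for NKD1 in 5-Ph-IAA/ATRi vs ATRi, before adjustment over all 18049 genes, and no member passed after it.

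With 1 mean per group and no covariate, 0 of the 7 tested members passed the adjusted threshold in any comparison, in edgeR or in DESeq2. With 5-Ph-IAA against DMSO, 0.00554% of all tested genes passed (1 gene), and with ATRi against DMSO 0.0665% passed (12 genes). The combination differed from 5-Ph-IAA in 9.41% of all genes (4.38% higher, 5.04% lower) and from ATRi in 3.51% (1.63% higher, 1.88% lower). The interaction called 0.0776% (0.0111% higher, 0.0665% lower). At an unadjusted p under 0.05, edgeR gave 2 of the 7 members in 5-Ph-IAA/ATRi vs DMSO, where 26.8% of all genes lay under it, and 1 in 5-Ph-IAA/ATRi vs ATRi, where 16.5% did. It gave 0 members in both single-compound comparisons, where the shares of all genes were 1.32% for 5-Ph-IAA and 4.86% for ATRi. It also gave 0 in 5-Ph-IAA/ATRi vs 5-Ph-IAA, with 22.6% of all genes, and 0 in the interaction, with 7.3%. Libraries of 5-Ph-IAA/ATRi lay wholly above DMSO in 2 of the 7 members, SP5 and TCF7, against 16.4% of all genes, and wholly below it in 0, against 15.9%. They lay wholly below ATRi and wholly below 5-Ph-IAA in NKD1, against 14% of all genes each, and wholly above ATRi in TCF7, against 12.9%, with 0 members above 5-Ph-IAA, against 13.6%. ATRi lay wholly above DMSO in SP5, against 4.73% of all genes, and below it in 0 members, against 4.07%. For 5-Ph-IAA and DMSO 0 members were apart, against 1.99% of all genes above and 1.38% below.

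The median log2 change of the 7 members was 0.54 in 5-Ph-IAA/ATRi vs DMSO, with -0.02 over all genes tested. In that comparison 5 members had positive and 2 had negative values. The median there was 0.21 without library 2 of DMSO and 0.33 without library 3 of 5-Ph-IAA/ATRi. It was 0.13 with 5-Ph-IAA alone and 0.14 with ATRi alone, beside -0.01 and -0.02 over all genes. Against 5-Ph-IAA the combination gave a median of 0.32 and against ATRi 0.13, beside -0.008 and -0.005 over all genes. With 1 library left out, the median ranged over -0.05 to 0.34 with 5-Ph-IAA alone, -0.06 to 0.37 with ATRi alone, 0.13 to 0.55 against 5-Ph-IAA and 0.02 to 0.33 against ATRi. The comparisons share libraries, so their medians are not independent of each other.

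In AXIN2, NKD1, RNF43, ZNRF3, TCF7 and MYC the libraries of DMSO lay further apart than the means of the 4 groups. In SP5 they did not. AXIN2 varied 5.2-fold between its lowest and highest library, MYC 3.66-fold and SP5 3.18-fold, while NKD1 and RNF43 varied 1.68-fold. AXIN2, NKD1, RNF43, ZNRF3 and MYC were each highest in the library with the lowest mitochondrial share of its group, in 4 of 4 groups. That was library 3 in all 4 groups, so in this count the mitochondrial share and the set number cannot be told apart. TCF7 did so in 1 group and SP5 in 0. In DMSO the mitochondrial share was 7.85% in library 1, 14.9% in library 2 and 6.63% in library 3, and MYC stood at 204, 88.6 and 237 CPM in the same libraries. In 5-Ph-IAA/ATRi the shares were 13.9, 12 and 10.7%, beside 225, 219 and 324 CPM of MYC.

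**Figure D3:**
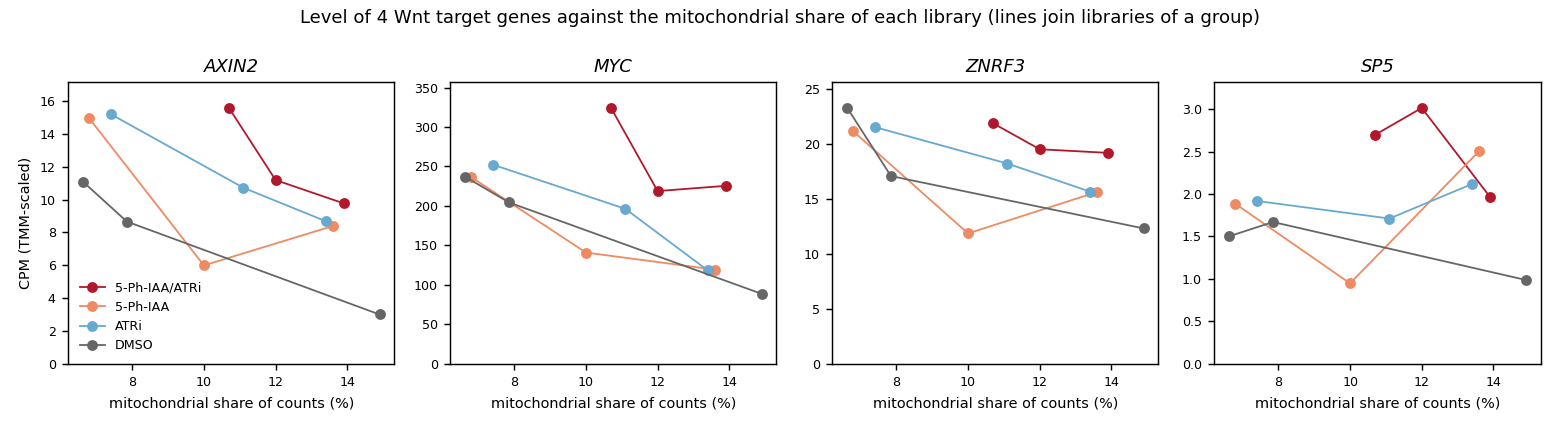
Level in TMM-scaled CPM (vertical axes) of AXIN2, MYC, ZNRF3 and SP5 against the percentage of a library's counts from mitochondrial transcripts (horizontal axes), with lines joining the 3 libraries of a group. AXIN2, MYC and ZNRF3 are highest in each group where the share is lowest, which is library 3 in all 4 groups, and SP5 is not.

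When the mitochondrial share was added to the model as a covariate, an alternative chosen with earlier results of these data known, 3 of the 7 members passed in 5-Ph-IAA/ATRi vs DMSO. AXIN2 then differed by 1.24 ± 0.24 (adjusted p = 0.00191), MYC by 1.03 ± 0.14 (adjusted p = 0.000165) and TCF7 by 0.67 ± 0.23 (adjusted p = 0.037) on the log2 scale (edgeR). Against 5-Ph-IAA, AXIN2 (0.70, adjusted p = 0.0355), MYC (1.01, adjusted p = 0.000237) and ZNRF3 (0.49, adjusted p = 0.037) passed, and against ATRi only MYC did (0.74, adjusted p = 0.00291, edgeR). Calls over all genes rose as well, so the gain in calls was not particular to the members. In 5-Ph-IAA/ATRi vs DMSO 6449 genes passed with the covariate, beside 2370 of 18049 in the main fit. Against 5-Ph-IAA 5507 passed, beside 1699, and against ATRi 3188, beside 634. With 8 libraries, leaving out the one with the highest share in each group, 0 members passed in any comparison. Whether the mitochondrial share stands for RNA quality, cell state or something else was not tested.

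The rest of the Wnt pathway was read from 7 lists by role with 129 genes, of which 105 were tested. In 5-Ph-IAA/ATRi vs DMSO, 9 of the 105 pathway genes rose and 6 fell in edgeR, so 15 passed beside 13.1% of all tested genes, and their median log2 change was -0.05. The inhibitors DKK1 and NKD2, the ligands WNT9A, WNT7B and WNT7A and the targets CCND1 and BAMBI were among those that rose. The receptor FZD2, the inhibitor NOTUM and the nuclear factors TCF7L2, TCF7L1 and TLE2 were among those that fell. With 8 libraries, BAMBI, CCND1, NOTUM, PORCN, TCF7L1 and TLE2 no longer passed (adjusted p 0.0528 to 0.117). With only the compared groups in the fit NOTUM, PORCN, TCF7L1 and TLE2 did not (adjusted p 0.0576 to 0.0716), and without the count filter PORCN, TCF7L1 and WNT7A did not (adjusted p 0.0557 to 0.219, edgeR). With ATRi alone, 1 of the 105 passed, DKK1. With 5-Ph-IAA alone 0 passed in edgeR or DESeq2, and 2 of the 105 pathway genes had an unadjusted p under 0.05 in edgeR, beside 1.32% of all genes.

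Ligands and their secretion had 4 of 15 tested genes higher and 0 lower in 5-Ph-IAA/ATRi vs DMSO, where 6.24% of all tested genes were higher and 6.89% lower. WNT9A (chr1:227918656-227947932) had 37.4, 29.2 and 42.5 CPM in 5-Ph-IAA/ATRi, 12.5, 12.5 and 17.8 CPM in 5-Ph-IAA and 12.9, 16.1 and 18.6 CPM in ATRi, against 9.56, 8.46 and 13.2 CPM in DMSO. The 5-Ph-IAA/ATRi libraries stood above all other libraries. WNT9A rose by 1.81 ± 0.23 over DMSO on the log2 scale (adjusted p = 0.000614) and by 1.20 ± 0.22 over ATRi (adjusted p = 0.0185), the call against ATRi lost without ATRi library 1 or 2 or 5-Ph-IAA/ATRi library 1 or 3 (adjusted p up to 0.0886, edgeR). WNT7B averaged 16.4 ± 1.48 CPM with both compounds and 8.53 ± 0.57 CPM in DMSO (SD, n = 3 each), a rise of 0.95 ± 0.18 (adjusted p = 0.00641, edgeR). WNT7A, at 1.68 ± 0.34 against 0.704 ± 0.078 CPM, rose by 1.24 ± 0.29 (adjusted p = 0.0161, edgeR). PORCN, the acyltransferase that lipidates Wnt proteins, rose by 0.47 ± 0.11 (adjusted p = 0.0177, edgeR). The median of the ligand list was -0.05. Of its 11 genes that did not pass, WNT5B, WNT10A and WNT10B had positive log2 changes and all others negative ones. The largest of these in size was -1.66 ± 0.51 in WNT3A (adjusted p = 0.0522, edgeR), so the list did not rise as a whole. The WNT7A call was lost without library 1 of DMSO (adjusted p = 0.0694) or library 2 of 5-Ph-IAA/ATRi (adjusted p = 0.073), and that of PORCN without any library of these groups but library 2 of DMSO (adjusted p up to 0.0694, edgeR).

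Receptors and R-spondins had 1 of 17 tested genes lower and 0 higher, close to the shares over all genes (6.89% lower, 6.24% higher), with a median log2 change of -0.27. The Frizzled receptor gene FZD2 (chr17:44557484-44561262) had 9.45, 7.96 and 7.28 CPM in 5-Ph-IAA/ATRi, against 14.7, 12.8 and 17.3 CPM in DMSO. The groups did not overlap. FZD2 fell by 0.86 ± 0.16 against DMSO on the log2 scale (adjusted p = 0.00455, edgeR).

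Extracellular inhibitors had 1 of 7 tested genes higher and 1 lower, beside 6.24% of all genes higher and 6.89% lower. DKK1 (chr10:52314281-52317657), which blocks the LRP co-receptors, had 325, 356 and 334 CPM in 5-Ph-IAA/ATRi, 159.8, 139.6 and 143 CPM in 5-Ph-IAA and 238, 221 and 195 CPM in ATRi, against 95.9, 114 and 116 CPM in DMSO. No pair of the 4 groups overlapped, with both compounds highest, then ATRi, then 5-Ph-IAA, then DMSO. DKK1 rose with both compounds by 1.64 ± 0.13 over DMSO (adjusted p = 2.47e-05), by 1.20 ± 0.12 over 5-Ph-IAA (adjusted p = 0.000285) and by 0.64 ± 0.12 over ATRi (adjusted p = 0.0198) on the log2 scale (edgeR). With ATRi alone it rose by 1.00 ± 0.12 over DMSO (adjusted p = 0.0114), and with 5-Ph-IAA alone it differed by 0.44 ± 0.12 (adjusted p = 1, edgeR). The interaction was 0.20 ± 0.17 (adjusted p = 0.998, edgeR). The DKK1 call for ATRi vs DMSO was lost without DMSO library 1 or 3 or ATRi library 1 or 2 (adjusted p up to 0.0828), with only the compared groups in the fit (adjusted p = 0.428) and with 8 libraries (adjusted p = 0.227, edgeR). Its call for 5-Ph-IAA/ATRi vs ATRi was lost without any library of these groups but ATRi library 1 (adjusted p up to 0.0852, edgeR).

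NOTUM (chr17:81952507-81961187), a secreted esterase that removes the lipid from Wnt proteins and is itself a Wnt target, had 6.69, 8.43 and 5.33 CPM in 5-Ph-IAA/ATRi, 15.1, 13.99 and 16.2 CPM in 5-Ph-IAA and 11.7, 13.4 and 13.3 CPM in ATRi, against 10.3, 11.4 and 15.3 CPM in DMSO. The libraries with both compounds were the lowest of all 12. NOTUM fell by 0.85 ± 0.19 against DMSO (adjusted p = 0.014) and by 1.15 ± 0.19 against 5-Ph-IAA (adjusted p = 0.00463) on the log2 scale (edgeR), and its interaction was -1.20 ± 0.27 (adjusted p = 0.225, edgeR). The call against DMSO was lost without library 1 or 3 of 5-Ph-IAA/ATRi or library 3 of DMSO (adjusted p up to 0.06, edgeR). Thus DKK1 rose and NOTUM fell in the same libraries.

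**Figure D4:**
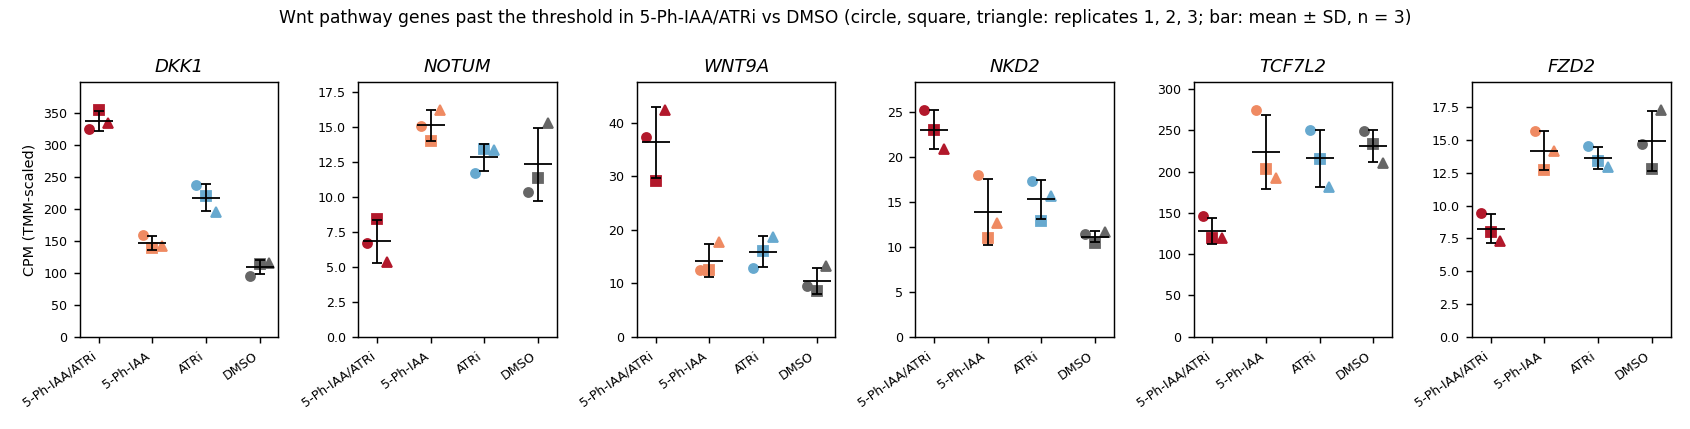
Level in TMM-scaled CPM (vertical axes) of DKK1, NOTUM, WNT9A, NKD2, TCF7L2 and FZD2 in each library by group, with marker shapes for replicates and bars for the mean ± SD of 3 libraries. DKK1, WNT9A and NKD2 are highest, and NOTUM, TCF7L2 and FZD2 lowest, in the 3 libraries with both compounds.

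Cytoplasmic transducers and the destruction complex had 1 of 18 tested genes higher and 0 lower, close to the shares over all genes (6.24% higher, 6.89% lower), with a median of 0.10. That gene was NKD2 (chr5:1008802-1038943), the paralogue of NKD1, at 25.3, 23.0 and 20.9 CPM in 5-Ph-IAA/ATRi, against 11.4, 10.4 and 11.7 CPM in DMSO. It rose by 1.05 ± 0.19 on the log2 scale (adjusted p = 0.00403, edgeR), while NKD1 differed by -0.28 ± 0.19. CTNNB1 averaged 345 ± 29.8 CPM with both compounds and 305 ± 141 CPM in DMSO (SD, n = 3 each), a log2 difference of 0.18 ± 0.40 (adjusted p = 0.83, edgeR). In DMSO its libraries held 355, 146 and 414 CPM, with the lowest again in library 2. APC differed by 0.25 ± 0.34 (adjusted p = 0.704) and AXIN1 by -0.42 ± 0.14 (adjusted p = 0.07, edgeR). AXIN1 passed with DESeq2 (adjusted p = 0.0291), with total counts (adjusted p = 0.0384) and with the replicate block (adjusted p = 0.0373). With the mitochondrial share as covariate CTNNB1 (0.73, adjusted p = 0.000893), APC (0.61, adjusted p = 0.00832) and AXIN1 (-0.49, adjusted p = 0.00282) all passed (edgeR). Over all genes 6449 passed with this covariate in 5-Ph-IAA/ATRi vs DMSO, beside 2370 of 18049 in the main fit. The gain in calls was therefore not particular to these genes.

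Nuclear partners of beta-catenin had 3 of 17 tested genes lower and 0 higher, beside 6.89% of all genes lower and 6.24% higher, with a median of -0.19. TCF7L2 (chr10:112950247-113167678), the TCF family member best known in the intestine, had 147, 119 and 119 CPM in 5-Ph-IAA/ATRi, 275, 203 and 193 CPM in 5-Ph-IAA and 251, 216 and 182 CPM in ATRi, against 249.7, 233 and 211 CPM in DMSO. Its libraries with both compounds stood below all other libraries. TCF7L2 fell by 0.85 ± 0.17 against DMSO (adjusted p = 0.00793) and by 0.75 ± 0.17 against ATRi (adjusted p = 0.0367) on the log2 scale (edgeR). The call against ATRi was lost without any 1 of the 6 libraries of these groups (adjusted p 0.0545 to 0.153, edgeR). Per kilobase of transcript it stood at 33.8 CPM with both compounds and 60.8 CPM in DMSO, against which TCF7 stood at 9.7 and 6.6. TLE2, a Groucho-type co-repressor, fell by 0.62 ± 0.14 (adjusted p = 0.0135), a call lost without library 3 of 5-Ph-IAA/ATRi (adjusted p = 0.0594, edgeR). TCF7L1, which acts mostly as a repressor, fell by 0.60 ± 0.18 (adjusted p = 0.0438), a call lost without any 1 of the 6 libraries of these groups (adjusted p 0.0582 to 0.159, edgeR).

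Other Wnt target genes had 2 of 21 tested genes higher and 0 lower, beside 6.24% of all genes higher and 6.89% lower, with a median of 0.11. CCND1 (chr11:69641156-69654474), cyclin D1, had 789, 652 and 1229.8 CPM in 5-Ph-IAA/ATRi, against 343, 226 and 459.6 CPM in DMSO. Its groups did not overlap. CCND1 rose by 1.38 ± 0.35 on the log2 scale (adjusted p = 0.023, edgeR), a call lost without library 1 or 2 of DMSO or library 1 or 3 of 5-Ph-IAA/ATRi (adjusted p up to 0.0983). BAMBI, a decoy receptor of the TGF-beta family, averaged 5.02 ± 0.51 CPM with both compounds and 2.44 ± 0.28 CPM in DMSO (SD, n = 3 each) and rose by 1.04 ± 0.21 (adjusted p = 0.00778, edgeR).

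The MYC network, which holds the partners and antagonists of MYC, had 1 of 10 tested genes higher and 1 lower, beside 6.24% of all genes higher and 6.89% lower. Both encode antagonists that pair with MAX. MXD1 averaged 13.7 ± 2.87 CPM in 5-Ph-IAA/ATRi and 6.64 ± 1.54 CPM in DMSO, a rise of 1.04 ± 0.25 (adjusted p = 0.0171, edgeR). MXD3 averaged 8.74 ± 2.72 CPM in 5-Ph-IAA/ATRi and 23.3 ± 2.76 CPM in DMSO (SD, n = 3 each) and fell by 1.42 ± 0.31 (adjusted p = 0.0113, edgeR). The call of MXD1 was lost without library 1 or 3 of either group (adjusted p up to 0.0797, edgeR). Both overlap other genes in GENCODE v29, MXD1 with SNRNP27 (551% of its counts) and MXD3 with RAB24 (77.3%) on the same strand and PRELID1 (668%) on the opposite strand, so both are uncertain.

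**Figure D5:**
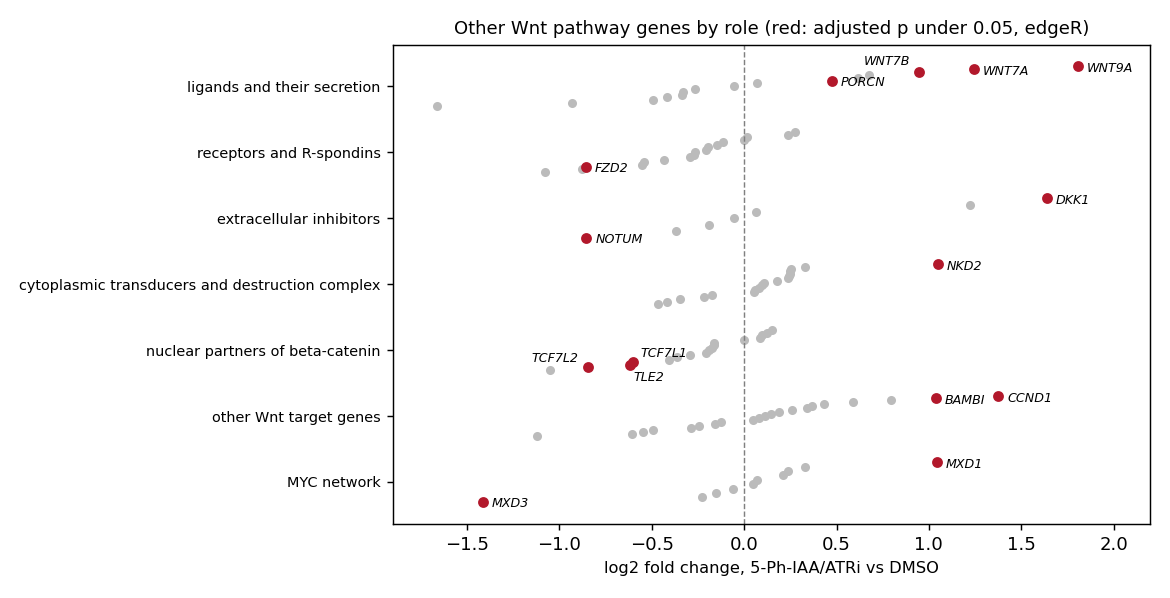
Log2 fold change in 5-Ph-IAA/ATRi vs DMSO (horizontal axis) of the 105 tested Wnt pathway genes other than the 10 targets, in rows by role, each point a gene. The 15 named genes in red had an adjusted p under 0.05 in edgeR. Among these, the 4 genes of ligands and their secretion are all to the right of 0 and the 3 nuclear partners all to the left.

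In the other comparisons, 15 of the 105 pathway genes passed in 5-Ph-IAA/ATRi vs 5-Ph-IAA (8 higher, 7 lower, beside 9.41% of all genes) and 5 in 5-Ph-IAA/ATRi vs ATRi (2 higher, 3 lower, beside 3.51%). The 5 against ATRi were WNT9A and DKK1, which rose, and FZD2, NOTUM and TCF7L2, which fell. The counts depend on single libraries. When 1 library of the compared groups was left out, they ranged from 6 to 16 against 5-Ph-IAA, where leaving out any library but 5-Ph-IAA library 3 moved the count by over 1.5 times. Against ATRi they ranged from 0 to 2 whichever library was left out, and 5-Ph-IAA/ATRi vs DMSO gave 10 to 16. Calls over all genes tested fell as well, from 1699 to between 777 and 1334 against 5-Ph-IAA. Against ATRi the calls over all genes fell from 634 to between 134 and 220. In the interaction 0 of the 105 pathway genes passed in edgeR, beside 0.0776% of all genes. At an unadjusted p under 0.05 edgeR gave 8 of the 105, close to the 7.3% over all genes. In DESeq2 1 of the 105 passed, where 184 of all genes did.

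The genes most like AXIN2 over the 12 libraries, by the mean absolute difference of centred log2 CPM, were ZNF488 (0.159), PPARGC1B (0.161) and KCNJ12 (0.165), where the median gene stood at 0.542. Each of the 3 was lowest in library 2 of DMSO, with 0.881 CPM of ZNF488, 4.09 CPM of PPARGC1B and 4.55 CPM of KCNJ12. Among the other members, ZNRF3 (0.251) and MYC (0.266) came nearest to AXIN2 and NKD1 (0.41) and RNF43 (0.413) were farthest. The points share libraries and their depth, so likeness is a description of these 12 libraries.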

How the data were processed

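Poly(A) RNA of 12 libraries was used, 3 per group, grouped by the sample titles. Per the submitters' processing notes the authors used Salmon 1.10.1, STAR 2.7.9a, cutadapt 3.4 and Trim Galore 0.6.7, plus SAMtools 1.17 and FastQC 0.12.1, with GRCh38.p14 as build. For the annotation release and strand setting, the sources used here give nothing. Per the labels' protocols, RNA was treated with DNase and the library kit keeps strand. The deposited values are estimated counts per gene by the authors, of which 13.6% were not whole, and they were rounded. No column was left without a sample.

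Counts were filtered with filterByExpr (minimum count 10, minimum total 15) and scaled by TMM. Differences were tested with edgeR 4.0.16 (limma 3.58.1, R 4.3.3), by the quasi-likelihood F test with 1 mean per group over all 12 libraries and Benjamini-Hochberg adjustment over 18049 genes. Standard errors are the size of the log2 change over the square root of F. The median biological coefficient of variation was 0.214. Replicates differed beyond sampling noise, with a chi-square per gene of 16.4 or more. The procedure was also run on simulated counts. These were drawn without a set or mitochondrial effect, so that run does not give the power in these libraries. Alternatives were DESeq2 1.42.0 and its size factors, total counts, other count filters, only the compared groups, a replicate block, a mitochondrial covariate, 8 libraries, and each library left out.

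The members and lists were chosen with earlier results of these data known. Named genes are the members, CTNNB1, APC, AXIN1 and TCF7L2, up to 4 genes per pathway list with the smallest adjusted p past 0.05 in 5-Ph-IAA/ATRi vs DMSO, and the 3 genes nearest to AXIN2 (log2 CPM with a prior count of 2). Marker lists were summed as CPM. Gene positions are from RefSeq for GRCh38.p14, and promoter letters from its promoter table. Transcript lengths and overlaps come from GENCODE v29.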

Additional observations from a re-analysis of the deposited data

How the results depend on the processing

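In edgeR, 0 members passed in every comparison with DESeq2 size factors, total counts, no count filter, a minimum of 1 CPM in 3 libraries, only the compared groups, 8 libraries, and each library left out, and 0 passed in DESeq2. The count of members was 3 in 5-Ph-IAA/ATRi vs DMSO, 3 in 5-Ph-IAA/ATRi vs 5-Ph-IAA and 1 in 5-Ph-IAA/ATRi vs ATRi with the mitochondrial covariate, and 1 in 5-Ph-IAA/ATRi vs DMSO with the replicate block. Over all genes the covariate gave 6449, 5507 and 3188 calls in these comparisons. The titles call the replicate numbers sets and do not say what a set shared. Of 18 pairs of libraries from the same set, 13 had correlated deviations over 0.1 (-0.094 to 0.756), among them all 6 pairs of set 3 (0.499 to 0.756), 4 of 6 in set 2 and 3 of 6 in set 1, against 8 of 36 pairs from different sets (-0.738 to 0.591). The other 5 same-set pairs did not exceed 0.1. Of the 12 libraries, 10 correlated best with one of their own set. Set 3 had the lowest mitochondrial share in all 4 groups, so for its pairs the set and the share cannot be told apart. DMSO library 2, with a share of 14.9%, correlated best with ATRi library 1 of another set (0.591), with 13.4%. What the libraries of a set have in common was not tested. The main fit has 1 mean per group and does not use the sets, so a shared set effect would stay in its spread. In 5-Ph-IAA/ATRi vs DMSO, 2370 genes passed without the block and 4569 with it. With the replicate block only TCF7 changed its call among members.

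The number of other Wnt pathway genes past the threshold, 15 in 5-Ph-IAA/ATRi vs DMSO, was 30 with the replicate block, 41 with the mitochondrial covariate and 9 with 8 libraries, and 10 to 16 with each library left out. Over all genes tested, the count of 2370 moved in the same directions, to 4569 with the block, 6449 with the covariate and 1624 with 8 libraries. It was 1236 to 2376 with each library left out. In 5-Ph-IAA/ATRi vs 5-Ph-IAA the pathway count of 15 became 23 in DESeq2, 7 with only the compared groups, 25 with the block, 39 with the covariate and 6 with 8 libraries (6 to 16 with each library left out). The count of 1699 over all genes became 2415, 1033, 3546, 5507 and 805 in the same order (777 to 1334 with each library left out). In 5-Ph-IAA/ATRi vs ATRi the pathway count of 5 became 3 without the count filter, 8 in DESeq2, 15 with the block, 19 with the covariate and 0 with 8 libraries (0 to 2). Here the 634 calls over all genes became 502, 1350, 1980, 3188 and 64 in the same order (134 to 220 with each library left out). In ATRi vs DMSO the pathway count of 1 became 0 with only the compared groups and with 8 libraries (0 to 1), and in the interaction 0 became 1 in DESeq2, 1 with the block and 2 with the covariate. All genes gave 12 calls in ATRi vs DMSO, then 0 and 1 (3 to 11 with each library left out). In the interaction they gave 14, then 184, 215 and 278. The cause was not tested. The pathway alternatives were chosen after seeing the data.

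Log2 changes of the members, and of the pathway gene CTNNB1, that turned sign had all missed the threshold in the main fit. With the mitochondrial covariate MYC was 0.022 in 5-Ph-IAA vs DMSO, and RNF43 was 0.054 in 5-Ph-IAA/ATRi vs DMSO and 0.1 in 5-Ph-IAA/ATRi vs ATRi. With 8 libraries RNF43 was -0.029, SP5 -0.154 and TCF7 -0.147 in 5-Ph-IAA vs DMSO, TCF7 was -0.110 and ZNRF3 -0.016 in ATRi vs DMSO, and CTNNB1 was -0.104 in 5-Ph-IAA/ATRi vs DMSO.

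With each library left out, 5-Ph-IAA vs DMSO gave -0.083 to 0.754 for AXIN2, -0.442 to 0.186 for MYC, -0.024 to 0.345 for NKD1, -0.083 to 0.247 for RNF43, -0.019 to 0.409 for TCF7 and -0.357 to 0.149 for ZNRF3. ATRi vs DMSO gave -0.223 to 0.371 for MYC, -0.287 to 0.036 for RNF43, -0.064 to 0.341 for TCF7 and -0.127 to 0.331 for ZNRF3. 5-Ph-IAA/ATRi vs DMSO gave -0.306 to 0.016 for RNF43, -0.002 to 0.454 for ZNRF3 and -0.158 to 0.461 for CTNNB1. 5-Ph-IAA/ATRi vs ATRi gave -0.142 to 0.326 for AXIN2 and -0.168 to 0.096 for RNF43. The interaction gave -0.681 to 0.156 for AXIN2, -0.267 to 0.064 for RNF43, -0.241 to 0.383 for SP5, -0.003 to 0.424 for TCF7 and -0.026 to 0.481 for ZNRF3.

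With 3 libraries per group and the spread of library 2 of DMSO, intervals of AXIN2 and MYC are wide, and LGR5, ASCL2 and LEF1 lie at the limit of depth.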
